A study of Mus musculus with 8 samples.

Results

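Mast cells are tissue-resident immune cells that store proteases, histamine and heparin-like proteoglycan in granules and release them when antigen crosslinks IgE on their surface or when other receptors fire. In the mouse, the granules of mast cells in connective tissue are known for the tryptase Tpsb2, the chymases Cma1 and Mcpt4 and the carboxypeptidase Cpa3, while those of mucosal mast cells are known for Mcpt1 and Mcpt2. In the ovary, mast cells and histamine have long been studied around ovulation, when follicle walls swell and rupture. The 8 genes described here were the tryptase genes Tpsb2 and Tpsab1, the chymase genes Cma1 and Mcpt4, Cpa3, the IgE receptor subunit genes Fcer1a and Ms4a2, and Hdc, which encodes the enzyme that makes histamine. They were taken by symbol from 41591 gene IDs with counts, and all 8 had a row. They were chosen because Tpsb2 and Cpa3 were lower in double knockout ovaries from a low level, so the difference between groups, and edgeR's calls of it, are given below as a description of these genes and support nothing.

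The libraries came from 8 samples of whole ovary of female mice about 3 weeks old, labelled C57BL/6. The 4 controls were littermates labelled wild-type and positive for Cre recombinase under Pgr, the progesterone receptor gene. The other 4, labelled Insr-Igf1r double knockout (DKO), carried conditional deletions in the genes of the receptors for insulin and for insulin-like growth factor 1, and this label names no Cre. All mice had received 4 IU of equine chorionic gonadotropin (eCG) to grow follicles. A dose of 5 IU of the human hormone (hCG), which triggers ovulation, followed at 48 h, and the ovaries were taken 12 h after that. Pgr-Cre acts in cells that express Pgr, which are part of the cells sampled here.

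Libraries held 33145056 to 39257648 counts in genes. Insr was at 140.05 to 162 CPM (counts per 1000000 counts of the library) in controls and 112 to 148 in DKO, and Igf1r at 196 to 263.3 and 199.6 to 247. These count every exon, so the deleted part was not seen apart from the rest. Pgr, the gene of the Cre driver named in the control label, was at 5.59, 4.92, 2.42 and 6.497 CPM in controls 1 to 4 and at 1.12, 2.33, 1.29 and 1.69 in DKO 1 to 4, without overlap. Some libraries stood apart. Control 1 and DKO 2 held transcripts of the oviduct, with the oviduct glycoprotein gene Ovgp1 at 1147 and 724 CPM against 2.51 to 23.8 in the other 6. The beta-globin gene Hbb-bs was at 0.609 and 1.06 CPM in DKO 1 and DKO 2 against 105 to 442 elsewhere, and Hbb-b1 was at 156 to 880 CPM in control 1 and DKO 1, 2 and 3 against 0.707 to 1.12 in the other 4. These pairs of globin genes are known as alternative forms of 1 locus that differ between mouse strains, and the 2 forms were split unevenly between the groups, so their part cannot be told apart from that of the genotype in DKO 1 and DKO 2. The sample titles of controls 2, 3 and 4 and DKO 3 and 4 carry numbers in 1 close run, and those of the other 3 carry lower numbers, whose meaning the labels do not state. Values within that run of 5 libraries, and without libraries that stood apart, are given beside the main results.

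The 4 genes for granule proteases were all at or below about 2 CPM and were lower in every DKO ovary than in every control. Tpsb2 encodes a tryptase, a tetrameric trypsin-like protease held on heparin in the granule. It was at 1.02, 1.92, 1.13 and 1.89 CPM in controls 1 to 4 and at 0.558, 0.383, 0.448 and 0.316 CPM in DKO 1 to 4. Controls 2 and 4 were the highest, and the lowest control lay above the highest DKO. These were 209 counts over the controls and 63 over the DKO libraries, a mean level 3.42-fold higher in controls (95% exact interval 2.57 to 4.61, for counting error only). The log2 fold change, DKO over control, was -1.79 ± 0.34 (SE, n = 4 each).

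Cpa3, a zinc carboxypeptidase that trims peptides in the granule (gene ID 12873, chromosome 3, 20215616 to 20242209, minus strand), followed the same order of groups. It was at 0.645, 1.10, 0.907 and 1.28 CPM in controls 1 to 4 and at 0.305, 0.236, 0.290 and 0.402 CPM in DKO 1 to 4. No DKO library reached the lowest control. The counts were 138 and 45, 3.16-fold higher in controls (2.24 to 4.53), and the log2 fold change was -1.66 ± 0.33 (SE, n = 4 each). An exon of Gm31320 overlaps it on the opposite strand, which the counting kept apart.

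The chymases are chymotrypsin-like proteases, and Cma1 is the mouse alpha-chymase gene by descent. It was at 0.645, 1.47, 0.687 and 1.40 CPM in controls 1 to 4 and at 0.406, 0.265, 0.132 and 0.201 CPM in DKO 1 to 4. The counts were 147 and 37, 4.09-fold higher in controls (2.84 to 6.04), with a log2 fold change of -2.04 ± 0.45 (SE, n = 4 each). Controls 2 and 4 were again the highest, and the groups did not overlap. Mcpt4, the chymase gene known as the main source of chymotrypsin-like activity in mouse connective tissue mast cells, was rarer. It was at 0.215, 0.707, 0.440 and 0.915 CPM in controls 1 to 4 and at 0.0762, 0.0883, 0.211 and 0.201 CPM in DKO 1 to 4. Control 1 and DKO 3 held 8 counts each, at different library sizes, so the Mcpt4 groups barely separated. Its counts were 79 and 21, 3.88-fold higher in controls (2.37 to 6.61), and too few for the filter on low counts.

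**Figure D1:**
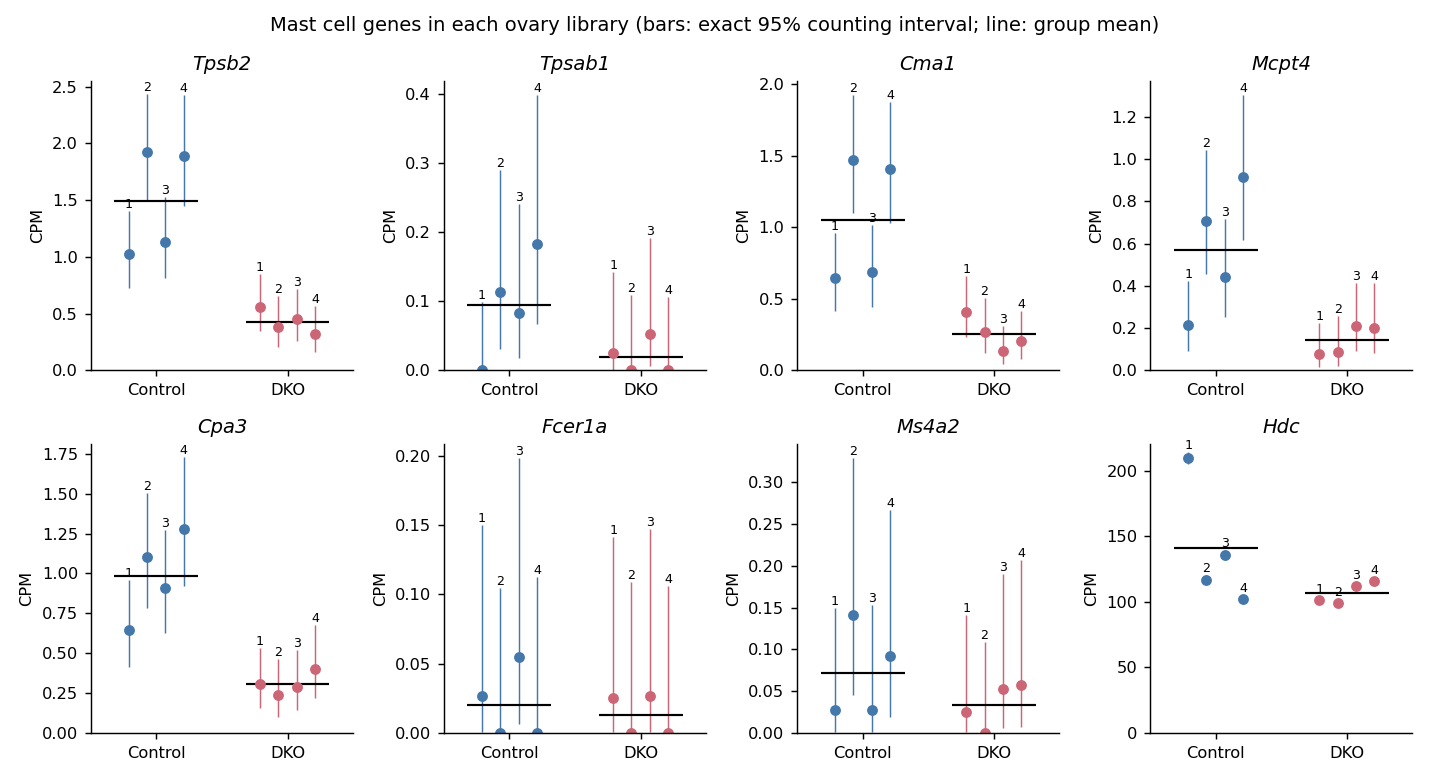
Normalised level (CPM) of each of the 8 genes in each library, with the replicate number above each point, exact 95% counting intervals as bars and group means as lines. Tpsb2, Cma1, Mcpt4 and Cpa3 lay higher in all 4 controls than in any DKO library, and Hdc lay near 100 CPM in DKO with control 1 at 210.0.

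Only Tpsb2, Cpa3, Cma1 and Hdc passed the filter on low counts. Of these 4, 3 had all controls above all DKO libraries, against 3.54% of the 16870 genes tested and 3.13% of the 2524 at 0.5 to 2 CPM in controls. None had the reverse order, against 5.7% of the genes tested, and Mcpt4, which was not tested, also had all controls above. Among the 4, edgeR's quasi-likelihood test over all genes called Tpsb2 and Cpa3 lower (adjusted p under 0.05), against 0.498% of all genes tested and 0.357% of those at 0.5 to 2 CPM. None was called higher, against 0.759%, and 1.26% of genes were called in either direction. Because these genes were chosen on this contrast, nothing is read from either count. Tpsb2 reached 10 counts in all 8 libraries, but Cma1 and Cpa3 passed the filter through the controls in part, with 10 counts in 1 and 3 DKO libraries. Over all genes tested the median log2 fold change was -0.02, and over those at 0.5 to 2 CPM in controls it was -0.11. A whole-ovary library cannot tell fewer mast cells from less RNA of these genes per mast cell.

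Without the libraries that stood apart, the log2 fold changes of Tpsb2 and Cpa3 stayed near their -1.79 and -1.66 with all libraries. That of Cma1 went further below 0 than its -2.04, and the calls were not kept. Without control 1 and DKO 2 the log2 fold changes were -1.87 for Tpsb2, -1.70 for Cpa3 and -2.23 for Cma1. Without DKO 1 and DKO 2 they were -1.93, -1.48 and -2.62, and within the run of 5 libraries they were -2.07, -1.64 and -2.80. None of the 3 genes was called in any of these 3 fits, whereas Tpsb2 and Cpa3 were called with all 8 libraries and the run as a block. Leaving out 1 library at a time, Tpsb2 and Cpa3 were both called without control 1 or control 3, and neither was called without control 2, control 4 or any 1 of the DKO libraries. DKO 4, which like controls 2, 3 and 4 had next to no Hbb-b1, was below each of those controls for Tpsb2, Cpa3, Cma1 and Mcpt4. Groups without overlap fix this order for any DKO library, so nothing is read from it, and the part of the globin forms was not tested.

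**Figure D2:**
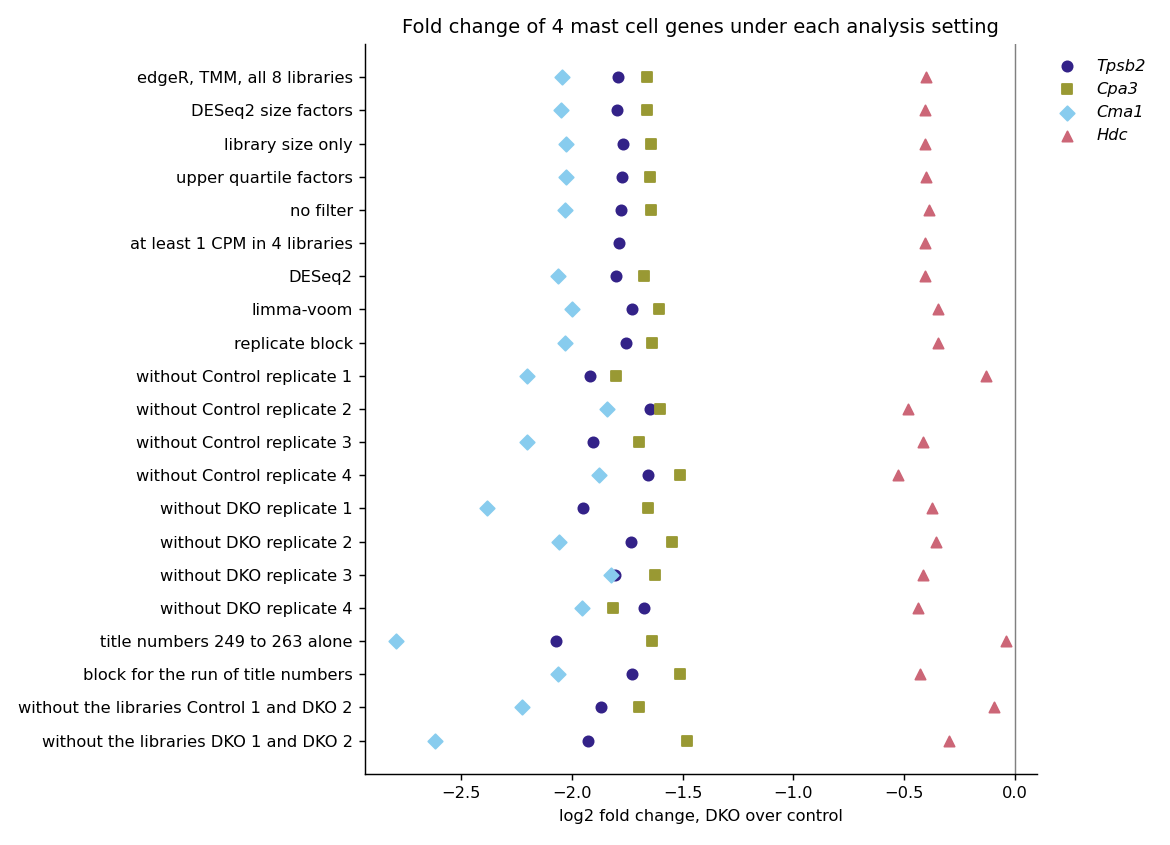
The log2 fold change, DKO over control, of the 4 mast cell genes that passed the filter on low counts, under each analysis setting (the setting named by title numbers alone is the run of 5 libraries). Tpsb2, Cpa3 and Cma1 lie between -2.80 and -1.48 in every setting, and Hdc lies between -0.53 and -0.04; at 1 CPM in 4 libraries Cpa3 and Cma1 are not tested.

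The controls themselves differed. Controls 2 and 4 were the highest controls not only for Tpsb2 and Cma1 but also for Mcpt4 and Cpa3. The few counts of the rarer genes Tpsab1 (4 and 6) and Ms4a2 (5 and 3) were highest there too. The other 2 of the 8 genes went the other way. Fcer1a had 0 counts in controls 2 and 4, and Hdc was lowest there among the controls, at 117 and 102 CPM. Over the controls the spread was wider than counting error for Tpsb2 (SD of 15.0 counts against 7.23 from counting alone). It was also wider for Cma1 (14.4 against 6.06) and Mcpt4 (9.74 against 4.44), and closer to counting error for Cpa3 (7.94 against 5.87). In DKO the SD was 4.86 counts for Tpsb2 against 3.97 from counting alone, and 4.79 for Cma1 against 3.04. It was 2.63 for Mcpt4 against 2.29, and 2.50 for Cpa3 against 3.35. On log2 CPM less the group means, over the 8 libraries, Pearson's r was 0.79 between Tpsb2 and Cma1, 0.51 between Tpsb2 and Cpa3 and 0.48 between Cpa3 and Cma1. These are descriptions over 8 libraries, which share depth and tissue content between genes.

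The mixture of the 4 protease genes was described from counts pooled over the libraries of each group, and a shift between the groups was not tested. Tpsb2 gave 36.5% of their summed counts in controls (95% exact interval 32.5 to 40.6, 573 counts) and 38.0% in DKO (30.5 to 45.8, 166 counts). Cma1 gave 25.7% (22.1 to 29.4) and 22.3% (16.2 to 29.4), Cpa3 24.1% (20.6 to 27.8) and 27.1% (20.5 to 34.5), and Mcpt4 13.8% (11.1 to 16.9) and 12.7% (8.0 to 18.7). Each pair of intervals overlapped. They cover counting error only and not the spread between libraries, so their overlap does not decide whether the mixture shifted. By library, the share of Tpsb2 ran from 28.2% in DKO 4 to 41.5% in DKO 1 and DKO 3. The share of Cma1 ran from 12.2% in DKO 3 to 30.2% in DKO 1. The share of Mcpt4 ran from 5.7% in DKO 1 (1.2 to 15.7) to 19.5% in DKO 3 (8.8 to 34.9), from 53 and 41 counts. The 4 genes together were at 2.52, 5.20, 3.16 and 5.49 CPM in controls 1 to 4 and at 1.35, 0.972, 1.08 and 1.12 CPM in DKO 1 to 4.

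**Figure D3:**
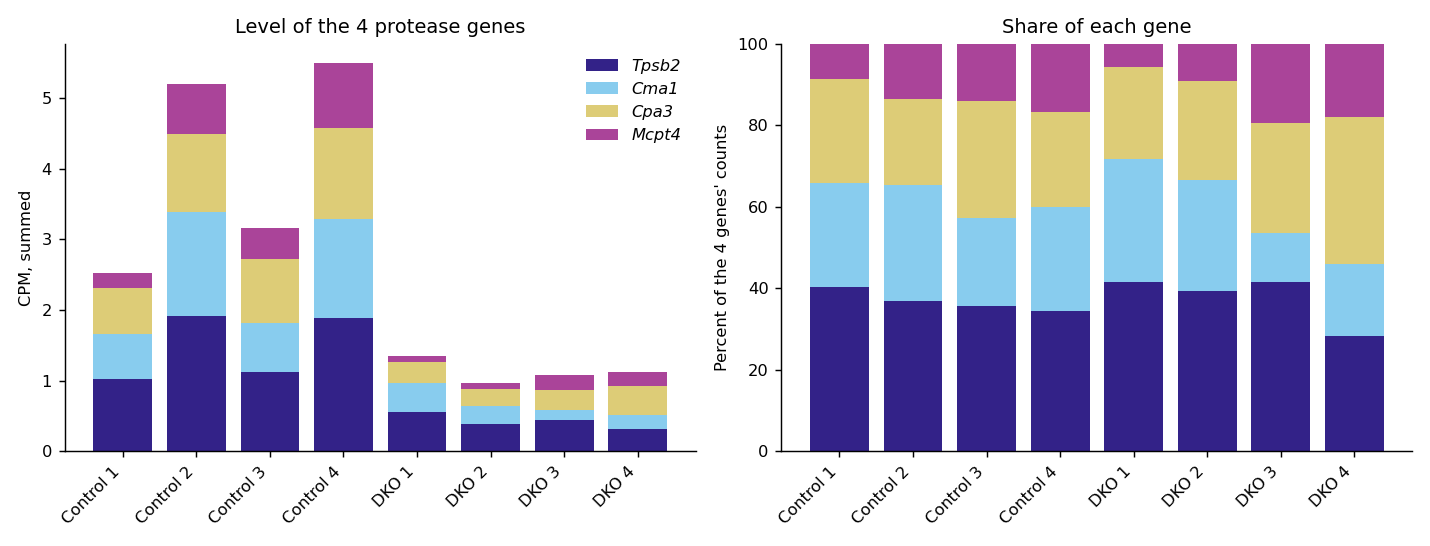
Left, the summed level (CPM) of Tpsb2, Cma1, Cpa3 and Mcpt4 in each library; right, the percent of their counts that each gene gave. The sum was at 2.52 to 5.49 CPM in controls and 0.972 to 1.35 in DKO, while Tpsb2 gave 36.5% of the counts in controls and 38.0% in DKO.

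The protease genes lie in family clusters. Over the 8 libraries, 10 or more counts were found for 6 of the 20 genes from Cma1 to Gzmb and for 4 of the 7 from Prss34 to Tpsg1, the mast cell genes included. Tpsb2 (gene ID 17229, chromosome 17, 25366303 to 25368096, plus strand) and Tpsab1 (gene ID 100503895, 25343245 to 25345562, minus strand) lie 20.7 kb apart in GRCm38.p5. Tpsab1 encodes a second tryptase in some mouse strains, and the RefSeq table lists it as a transcribed pseudogene on this C57BL/6J assembly. It had 0, 4, 3 and 6 counts in controls 1 to 4 and 1, 0, 2 and 0 in DKO 1 to 4. With 13 and 3 counts in all, the ratio was 4.47-fold higher in controls with a counting interval of 1.23 to 24.4, and the groups overlapped. The libraries at 0 allow up to 3 counts, or 0.0806 to 0.0883 CPM. Tpsb2 and Tpsab1 shared 10 stretches of 30 bases in GENCODE transcripts and none of 50.

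Cma1 (gene ID 17228, chromosome 14, 55941451 to 55944675) and Mcpt4 (gene ID 17227, 56059744 to 56062310), both on the minus strand, lie 115.1 kb apart in a row of 20 genes from Cma1 to the granzyme gene Gzmb. The mucosal protease genes Mcpt1 and Mcpt2, which lie between Cma1 and Mcpt4, were at or near 0, with 1 count of Mcpt1 in 8 libraries and none of Mcpt2. Mcpt9, in the same stretch, had none either. The chymase gene Cma2 had 1 count, and so did Ctsg, which encodes cathepsin G. Mcpt4 transcripts share 5.48% of their 50-base stretches with Cma2 and 0.661% with Mcpt9, so its count is uncertain there.

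Promoters are printed for the protease genes that were lower together in DKO and that have an entry in the RefSeq promoter table (GRCm38.p6), which holds 6 of the 8 genes. GATA factors and the E-box factor MITF are known regulators of mast cell genes, so the 250 bases before each start were searched on both strands for the GATA hexamers AGATAA or AGATAG and also TGATAA or TGATAG. They were searched on both strands for the E-box CANNTG as well, and on the gene's strand for TATAAA, and no motif was masked where it overlapped another. The sequences run 5′ to 3′ on the minus strand and are cut before the first annotated exon, with the GATA hexamer in capitals.
Cpa3, chr3:20242210-20242431: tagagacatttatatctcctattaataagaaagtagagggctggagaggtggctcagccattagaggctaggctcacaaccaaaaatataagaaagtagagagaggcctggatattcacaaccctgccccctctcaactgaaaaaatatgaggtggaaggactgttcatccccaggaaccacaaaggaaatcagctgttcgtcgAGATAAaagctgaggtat
Cma1, chr14:55944676-55944925: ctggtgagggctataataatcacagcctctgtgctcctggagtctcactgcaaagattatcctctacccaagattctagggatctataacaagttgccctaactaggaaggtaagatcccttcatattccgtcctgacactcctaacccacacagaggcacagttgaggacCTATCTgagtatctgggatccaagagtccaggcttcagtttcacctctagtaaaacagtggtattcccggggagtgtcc
Mcpt4, chr14:56062314-56062560: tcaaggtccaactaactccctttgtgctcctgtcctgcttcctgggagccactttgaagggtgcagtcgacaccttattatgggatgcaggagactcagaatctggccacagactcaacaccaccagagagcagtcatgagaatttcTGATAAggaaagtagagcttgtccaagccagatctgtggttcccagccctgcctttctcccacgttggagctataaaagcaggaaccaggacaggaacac
The capitals begin 46 bases before the start in Cpa3, 79 in Cma1 and 103 in Mcpt4, and in Cma1 the hexamer reads on the other strand. All 6 windows held at least 1 GATA hexamer, those of Fcer1a, Ms4a2 and Hdc included, against 26.5% of 32851 promoter windows of the same length. An E-box was in 4 of the 6, against 66.2% of all windows, and TATAAA in 3 (Cpa3, Mcpt4 and Fcer1a), against 7.6%. Hdc, whose level did not follow that of the proteases, held a GATA hexamer as well, and a match of letters does not show binding. The factor genes Gata1, Gata2 and Mitf had log2 fold changes of 0.31, -0.09 and -0.31. For each of them the groups overlapped and edgeR made no call, and a part of these factors was not tested.

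The genes of the high-affinity IgE receptor were close to absent. Fcer1a (gene ID 14125, chromosome 1, 173221269 to 173227232) encodes the chain that binds IgE. It had 1, 0, 2 and 0 counts in controls 1 to 4 and 1, 0, 1 and 0 in DKO 1 to 4, all under the 3 counts that a count of 0 allows. Ms4a2 (gene ID 14126, chromosome 19, 11615517 to 11623790), the signal-amplifying beta chain, had 1, 5, 1 and 3 counts in controls and 1, 0, 2 and 2 in DKO. Its ratio of 10 to 5 counts, 2.06-fold higher in controls, had a counting interval of 0.642 to 7.69, so no difference was detectable at this depth. The gamma chain gene Fcer1g, which other Fc receptors and macrophages also use, was at 8.73 to 11.9 CPM in controls and 6.33 to 9.34 in DKO.

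Hdc (gene ID 15186, chromosome 2, 126593659 to 126624025) was of another order of abundance. It was at 210.0, 117, 136 and 102 CPM in controls 1 to 4 and at 102, 99.1, 112 and 116 CPM in DKO 1 to 4, and the groups overlapped. Control 1, which held oviduct transcripts, was by far the highest, and DKO 2, which also held them, was the lowest of the 8 libraries. The log2 fold change was -0.40 ± 0.20 (SE, n = 4 each), -0.13 without control 1, -0.09 without control 1 and DKO 2, and -0.04 within the run of 5 libraries. On log2 CPM less the group means, r with Hdc was -0.76 for Tpsb2, -0.70 for Cpa3 and -0.71 for Cma1 over 8 libraries.

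Levels between genes were compared as RPKM, which is CPM divided by gene length in kilobases. In controls Hdc was at 53.3 ± 18.1 RPKM, Tpsb2 at 1.29 ± 0.418, Cma1 at 0.964 ± 0.409, Cpa3 at 0.664 ± 0.184 and Mcpt4 at 0.575 ± 0.309 (mean ± SD, n = 4). Tpsab1 was at 0.0866, Ms4a2 at 0.0248 and Fcer1a at 0.0198 RPKM. Hdc was thus 41.3 times the level of Tpsb2, and above 95.7% of the 29920 genes with any count, whereas Tpsb2 was above 59.6% and Fcer1a above 22.5%. Hdc did not overlap Tpsb2, and Mcpt4 did not overlap Tpsab1, in either group. Every other pair of neighbours in this order overlapped in both groups. Tpsb2 was nonetheless above Cma1 in all 8 libraries. As the label mast cell genes goes, Tpsb2, Cma1, Cpa3 and Mcpt4 had reads in all 8 libraries, while Hdc stood at a level that the other 7 genes did not share.

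**Figure D4:**
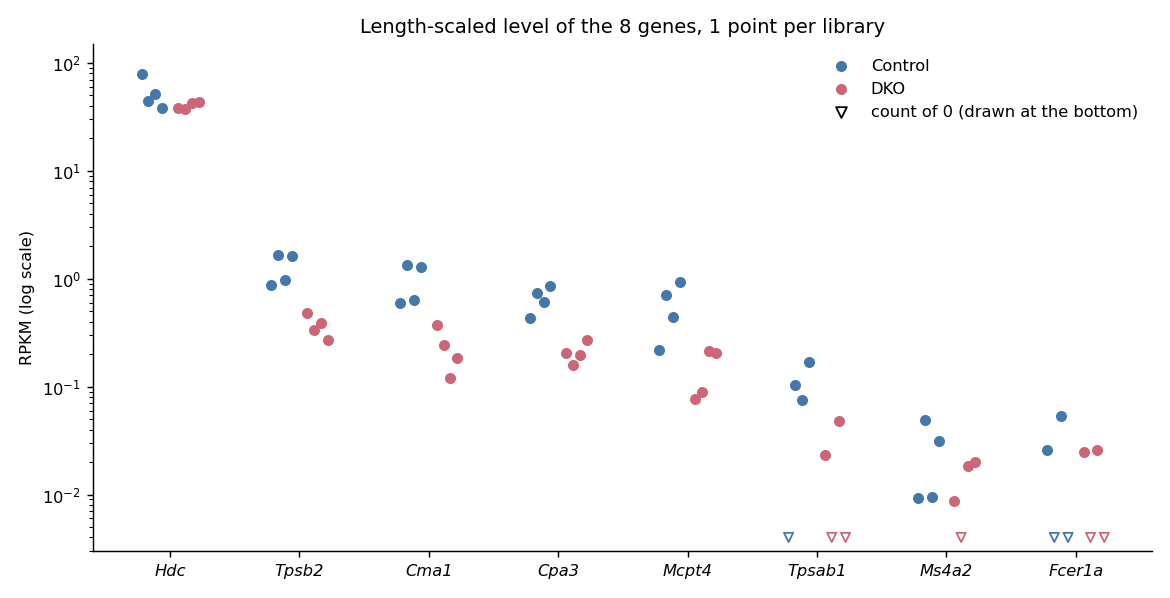
Length-scaled level (RPKM, log axis) of the 8 genes, 1 point per library, with counts of 0 as open triangles at the bottom. Hdc lies at 37.4 to 79.2 RPKM in every library, the 4 protease genes between 0.0769 and 1.66, and Tpsab1, Ms4a2 and Fcer1a at or below 0.167.

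Other genes of mast cell pathways showed few calls. Histamine handling had 9 genes, of which 6 were tested and 1 was called. Slc29a4, which encodes a membrane transporter of monoamines including histamine, was at 3.17, 3.17, 7.09 and 3.36 CPM in controls 1 to 4 and at 14.9, 15.3, 11.9 and 9.56 CPM in DKO 1 to 4. It rose by 1.62 ± 0.30 (log2, SE, n = 4 each; edgeR adjusted p = 0.0407, higher in 4 of 4 DKO libraries), against 0.759% of all genes called higher. Leaving out 1 library at a time the adjusted p ran from 0.00557 to 0.154, and it was under 0.05 only without control 3. The log2 fold change ran from 1.51 to 2.00 in these fits. It was 1.43 without control 1 and DKO 2 (adjusted p = 0.109), 1.37 without DKO 1 and DKO 2 (0.206) and 1.25 within the run of 5 libraries (0.19). The vesicular monoamine transporter gene Slc18a2, which loads histamine into granules, was at 122 to 253 CPM in controls and 123 to 186 in DKO, and per length its control mean was 49.3 RPKM against 53.3 for Hdc. The histamine-degrading enzyme gene Aoc1 was at 12.6 and 11.4 CPM in control 1 and DKO 2, the libraries with oviduct transcripts, and at 0.0762 to 0.976 elsewhere. The receptor gene Hrh1 was at 1.42 to 2.36 CPM in controls and 0.584 to 1.64 in DKO.

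Of 9 other granule protease genes only Gzmb was tested, at 1.91 to 3.69 CPM in controls and 2.03 to 4.88 in DKO, and it was not called by edgeR, DESeq2 or limma-voom. Of the 13 genes of IgE receptor signalling, all were tested and none was called by any of the 3 tools, and 0 had an unadjusted edgeR p under 0.05. Their median log2 fold change was -0.14. Fyn, a Src family kinase gene and the most abundant of them per length over all 8 libraries, was at 90.3 to 109 CPM in controls and 96.9 to 116 in DKO.

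Of 16 genes of mast cell growth and identity 12 were tested, 9 below 0 and 3 above, with a median of -0.41. EdgeR called none over all genes, limma-voom 0 and DESeq2 2 (Il1rl1 and Enpp3, both lower), and 5 had an unadjusted edgeR p under 0.05, all lower in DKO. Of all genes tested, 6.98% were lower at an unadjusted edgeR p under 0.05 and 2.79% were called lower by DESeq2. Kitl, the ligand of the mast cell growth receptor Kit, was at 104 to 158 CPM in controls and 117 to 162 in DKO. Kit itself, which oocytes and theca cells also express, was at 11.9 to 18.5 and 13.9 to 18.9 CPM. The genes named next were picked after their values were seen, except Mrgprb2, given beside Mrgprb1. Il1rl1, the gene of the interleukin-33 receptor, was at 1.77, 1.70, 2.06 and 2.10 CPM in controls 1 to 4 and at 0.228, 0.854, 0.633 and 0.804 CPM in DKO 1 to 4 (log2 fold change -1.60 ± 0.39, edgeR adjusted p = 0.083, 0.00303 to 0.21 over the alternatives, lower in 4 of 4 DKO libraries). Mrgprb1, a receptor gene of the family that triggers mast cells without IgE, had 2, 5, 1 and 10 counts in controls 1 to 4 and 1, 0, 0 and 0 in DKO 1 to 4. Mrgprb2, of the same family and list, had 1, 3, 3 and 2 counts in controls and 2, 0, 0 and 0 in DKO, and its groups overlapped. Prss34, a protease gene of mast cells and basophils, had 6 counts in each of controls 2 and 4, 1 in DKO 4 and 0 in the other 5 libraries. Il9r, an interleukin-9 receptor gene of the same list, had the opposite order, with 6, 6, 4 and 0 counts in controls 1 to 4 and 15, 10, 10 and 7 in DKO 1 to 4, too few for the filter.

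All 9 genes of granule proteoglycan and lipid mediators were tested, 8 below 0 and 1 above, with a median of -0.63. EdgeR called none and limma-voom 0, DESeq2 called 1 (Ptgs1, lower), and 3 had an unadjusted edgeR p under 0.05, all lower, against the 2.79% and 6.98% of all genes above. Srgn, the core protein gene of granule proteoglycan in many blood cells, was at 30.1 to 103 CPM in controls and 23.3 to 54.2 in DKO. Ptgs1, the constitutive prostaglandin synthase gene, picked after its values were seen, was at 53.4, 74.5, 115 and 80.9 CPM in controls 1 to 4 and at 14.1, 45.7, 26.3 and 31.0 CPM in DKO 1 to 4 (log2 fold change -1.47 ± 0.35, edgeR adjusted p = 0.0872, 0.000444 to 0.237 over the alternatives, lower in 4 of 4 DKO libraries). Ptgs1 was called without control 1 and DKO 2 (log2 fold change -1.90, edgeR adjusted p = 0.0364), within the run of 5 libraries (-1.63, 0.0236) and with the replicate block (-1.53, 0.0324), but not without DKO 1 and DKO 2 (-1.48, 0.087).

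**Figure D5:**
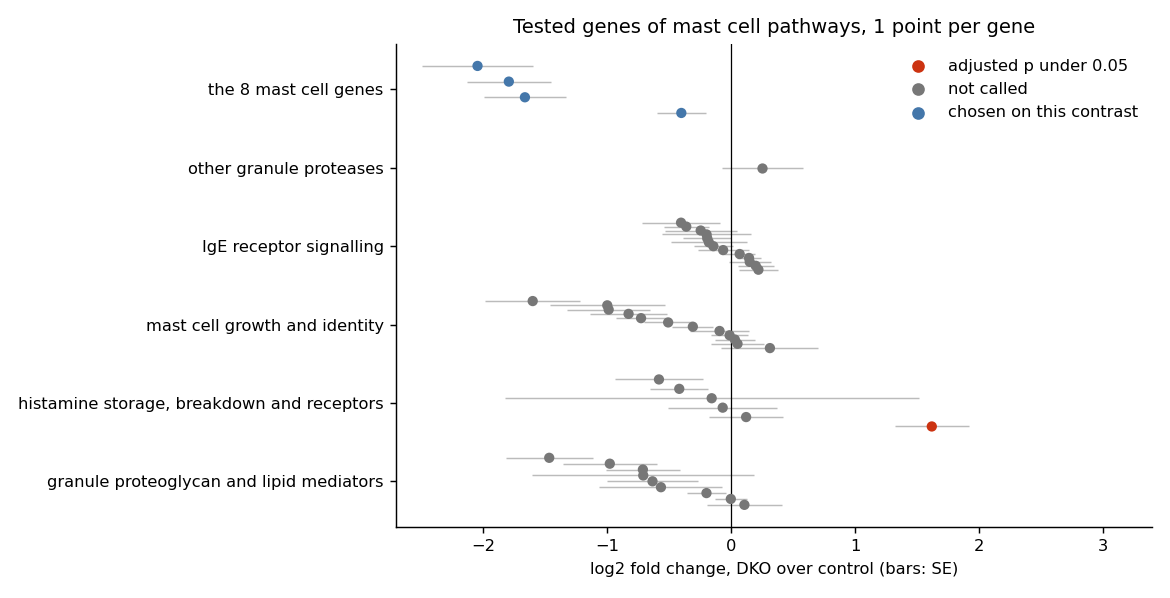
The log2 fold change, DKO over control, of each tested gene in the 8 mast cell genes and in 5 lists of related genes, with SE as bars. Slc29a4 at 1.62 is the 1 gene of the 5 lists with an adjusted p under 0.05; the 4 tested mast cell genes were chosen on this contrast and are shown as a description.

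Markers of other cells were read beside these values. Of the basophil markers, Mcpt8 had 2 counts in DKO 3 and 0 in the other 7 libraries, and the summed level of all 4 was at most 0.254 CPM in any library. The 5 eosinophil markers together were at 0.134 to 0.311 CPM in controls and 0.0574 to 0.203 in DKO. The 8 neutrophil markers together were at 3.87, 5.26, 25.1 and 11.2 CPM in controls 1 to 4 and at 2.23 to 3.80 in DKO, and all 4 tested were below 0 and none was called. In this neutrophil sum every control lay above every DKO library, with control 3 the highest. Adipocyte markers together were at 76.7 to 132 CPM in controls and 40.9 to 61.8 in DKO, with 4 of 5 tested below 0. Fabp4 gave most of this sum in every control, at 47.0 to 112 CPM in controls and 8.53 to 34.3 in DKO. Plin1 was called higher, at 6.98 to 12.4 CPM in controls and 19.6 to 29.3 in DKO, and Adipoq and Cidec overlapped. The sum thus does not give 1 direction for these markers. Macrophage markers were at 137 to 228 and 155 to 193 CPM, fibroblast markers at 411 to 739 and 396 to 591, and smooth muscle markers at 1982 to 3821 and 1538 to 2611. Granulosa and theca markers together were at 3703 to 5508 CPM in controls and 5812 to 7787 in DKO, without overlap. Hsd3b1, which gave most of this sum and was called higher, was at 2125 to 3513 CPM in controls and 4120 to 5411 in DKO. Foxl2 was also higher in every DKO library, while Fshr, Amh, Cyp19a1, Cyp17a1 and Inha each overlapped. The 6 endothelial markers were all above 0 and none was called, at 427 to 515 and 442 to 639.99 CPM. Each of the 8 neutrophil and 6 adipocyte markers had a count in at least 1 library, and the part of any of these cell types in the protease values was not tested.

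The genes most alike in pattern were sought among 14249 genes whose mean reached 1 CPM. For Cpa3, Pearson's r of log2 CPM over the 8 libraries was highest for Gprc5b (0.989), Rbms1 (0.978), Hif1a (0.975), Rad18 (0.972) and Adam9 (0.971). For Tpsb2 it was highest for Nsmaf (0.966), Fam118a (0.953), Prkab2 (0.9495), AI662270 (0.947) and Apoa1 (0.946). After subtraction of the group means the order was led by Cd164 (0.990) for Cpa3 and by R3hdm2 (0.983) for Tpsb2. Between the members, Tpsb2 and Cma1 had r of 0.957, Tpsb2 and Cpa3 0.931 and Cpa3 and Cma1 0.901 over the same 8 libraries. These values include the difference between the groups, by which the genes were chosen.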

How the data were processed

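Each library has its own deposited file of raw counts, in which featureCounts 1.5.2 summed reverse-stranded reads over exons by gene ID with the RefSeq annotation of GRCm38.p5, per the file headers. The submitters' processing notes also list Trimmomatic 0.36 and 0.33, STAR 2.4.2a, bcl2fastq 2.17.1.14 and edgeR 3.12.0. The mast cell genes and the gene lists were chosen with earlier results of these data known. Symbols came from a RefSeq table of GRCm38.p6 (96.9% of IDs matched).

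Groups and replicate numbers came from the sample descriptions. With edgeR 4.0.16 (R 4.3.3), filterByExpr kept 16870 genes, TMM factors were 0.943 to 1.06, and a robust two-sided quasi-likelihood F-test with Benjamini-Hochberg adjustment compared DKO with control. The SE is the log2 fold change over the square root of F. CPM and RPKM carry the TMM factors, and RPKM uses the deposited gene length. Exact intervals cover counting error only, and reads without molecular identifiers are not independent molecules. No pair of libraries in a group agreed within sampling noise (reduced chi-square 22.9 to 129.3 over genes). Whether each library is 1 animal is not stated, and p-values measure the spread between these samples.

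Alternatives were other scalings and filters, DESeq2 1.42.0, limma-voom (limma 3.58.1), a replicate block, a block for title numbers, and leaving out libraries. Leaving out control 1 with DKO 2, and DKO 1 with DKO 2, was chosen after seeing the data. Scripts were tested on simulated data. By rule the text names all 8 genes, every called member of each other pathway list or else its most abundant member per length, and for Cpa3 and Tpsb2 the 5 genes most alike.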

Additional observations from a re-analysis of the deposited data

Results flagged for a closer look

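None of the 16 groups of 4 values of the 8 mast cell genes held a library far from the rest by Dixon's test. Over all 42 groups examined, 6 did. Some of the genes beyond the 8 were picked after their values were seen. The 6 are therefore not compared with the rate of about 1 in 20 that chance gives. Slc18a2 was at 185.8 CPM in DKO 3 against 123 to 128 in the other DKO libraries. Slc29a4 was at 7.09 CPM in control 3 against 3.17 to 3.36 in the other controls. Aoc1 was at 12.6 CPM in control 1 against 0.165 to 0.976 in the other controls, and at 11.4 CPM in DKO 2 against 0.0762 to 0.554 in the other DKO libraries. Mrgprb1 at 0.0254 CPM in DKO 1 and Prss34 at 0.0287 CPM in DKO 4 stood apart because each rests on 1 count, with 0 in the other 3 DKO libraries.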

How the results depend on the processing

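Tpsb2, Cpa3, Cma1 and Hdc were below 0 in every setting that tested them, a direction that groups without overlap fix for the first 3. With all libraries, edgeR called 212 genes, and DESeq2 called 1107. Without control 1 and DKO 2 it was 97, without DKO 1 and DKO 2 it was 64, and with 1 library left out it ran from 2 (without control 2) to 506 (without control 3). Of the 8 mast cell genes edgeR called 2 lower. The count was 1, Tpsb2, with no filter, with at least 1 CPM in 4 libraries (where Cpa3 and Cma1 are not tested) and with limma-voom. It was 0 without the pair control 1 and DKO 2, where 4 of 5 tested had an unadjusted edgeR p under 0.05. Without the first 2 DKO libraries it was likewise 0, and 3 of 5 tested had an unadjusted edgeR p under 0.05. With 1 library left out the count ran from 0 to 3 of the 4 or 5 tested, with 3 or 4 at an unadjusted edgeR p under 0.05 in each. DESeq2 with all libraries gave 3 of 4 tested, against 2.79% of all genes called lower. With all libraries, 6.98% of all genes were lower at an unadjusted edgeR p under 0.05, and this share was not computed for the refits. Because these genes were chosen on this contrast, nothing is read from their counts. The cause of the shifts between settings was not tested.

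Control and DKO libraries share replicate numbers, but deviations of same-numbered libraries correlated at 0.156, -0.359, 0.312 and 0.468, so the numbers were not taken to pair them. With the replicate block, edgeR called 743 genes and 2 of the 8 mast cell genes, Cpa3 and Cma1 in place of Tpsb2. Not every library correlated best with its own number. Depth limits Tpsab1, Fcer1a and Ms4a2, with 16, 5 and 15 counts over 8 libraries.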

Other observations

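In the chymase cluster the pseudogene Gm5801, which lies between Cma1 and Mcpt4 on chromosome 14, had 4, 84, 168 and 6 counts in controls 1 to 4 and 2, 3, 1 and 3 in DKO 1 to 4. The 2 high libraries were controls 2 and 3. The highest counts of Cma1 and Mcpt4 were in controls 2 and 4, so control 2 was in both pairs.

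Rgs13 and Hpgds are named after their values were seen. Rgs13, a signalling regulator gene known from mast cells and germinal centre B cells, was at 6.18, 13.9, 6.79 and 13.8 CPM in controls 1 to 4, with controls 2 and 4 highest as for Tpsb2. In DKO 1 to 4 it was at 4.37, 4.71, 6.73 and 7.12 CPM, which overlaps the controls. The prostaglandin D synthase gene Hpgds was at 18.1 and 10.1 CPM in control 1 and DKO 2, the libraries with oviduct transcripts, and at 1.61 to 3.05 CPM in the other 6.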
